A study of Mus musculus with 4 samples.

Results

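The regions described here are the widest stretches of open chromatin in 6 deposited lists of differentially accessible regions from mouse T helper cells: 998 regions on chromosomes 1 to 19, chosen by their width of 1500 bp or more from 51390 merged listed regions, or 1.94% of them. Each list compares a pair of T helper populations by ATAC-seq, in which a transposase cuts accessible DNA, and gives for each interval a position and 1 log2 fold. A fold is the first-named minus the second-named population, so in the tables of naive minus another population a positive fold means higher in naive cells. The 1559 listed intervals of 1500 bp or more, 1.72% of 90402, were joined at an overlap of 1 bp or more. The median width of these broad regions was 1640 bp, with quartiles of 1560 and 1791 bp and a maximum of 3400 bp, against a median of 496 bp over all merged regions. Since width chose them, their width, their presence in a list and their folds are a description and carry no test.

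The 4 populations came from mice given house dust mite (HDM), an allergen used in asthma models, for sensitization and challenge. Other effector cells (CD3+ CD4+ CD44+ ST2- CD30L+), Treg cells (CD3+ CD4+ CD25hi CD30L-) and Th2 cells (CD3+ CD4+ CD44+ ST2+ CD30L+) were sorted from lung with airways at day 15. Naive cells (CD3+ CD4+ CD44lo, with a further marker in the gate) came from the mediastinal lymph node of HDM-treated mice, so tissue and population cannot be told apart in the tables with naive cells. For other effector and naive cells a second label names day 10, and the titles were followed. The labels' protocols name 3 biological replicates of 1000 cells for each population, but the lists hold no replicate values, p-values or read counts. Depth is therefore unknown, errors of single folds cannot be given, and fewer open cells and less opening per cell cannot be told apart. As the lists hold differences, they cannot show whether a gene used by all T cells is open: Cd4 had 0 listed regions, Cd3e 5, and the sort marker genes Il1rl1 (ST2), Il2ra (CD25), Cd44 and Tnfsf8 (CD30L) had 18, 17, 23 and 7, of which 1 region of Cd44 was broad.

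Open chromatin is DNA from which nucleosomes are displaced, and it is found mainly at gene starts and at enhancers. Gene starts within CpG islands, stretches rich in the CG dinucleotide, are open in most cell types, whereas enhancers are open in the cells that use them. In naive T cells factors such as Bach2, Foxo1, Foxp1 and Satb1 uphold the resting state, and after allergen contact Th2 cells express type 2 cytokines under Gata3 and Stat6, while Treg cells restrain responses under Foxp3.

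The promoters below, of the widest broad region for each pattern of populations that covers a whole RefSeq promoter, show the kind of sequence these regions hold at gene starts. Each runs 5′ to 3′ on the strand of the gene, from 250 bases before to 50 after the start site, from RefSeq on GRCm38.p6. Capitals mark matches, on either strand, to any of 7 short motifs: AP-1 as TGANTCA, the GC box as GGGCGG, the TATA box as TATAAA, ETS as CCGGAA, RUNX as TGTGGTT, that of GATA factors as AGATAA and CRE as TGACGTCA. Matches to neighbouring GC boxes can overlap. The patterns named here count broad intervals only. Narrower intervals in the Rreb1 region were also higher in Treg and Th2 than other effector cells.
Klf13, higher in Treg and Th2 cells, chr7:63938866-63939165, minus strand: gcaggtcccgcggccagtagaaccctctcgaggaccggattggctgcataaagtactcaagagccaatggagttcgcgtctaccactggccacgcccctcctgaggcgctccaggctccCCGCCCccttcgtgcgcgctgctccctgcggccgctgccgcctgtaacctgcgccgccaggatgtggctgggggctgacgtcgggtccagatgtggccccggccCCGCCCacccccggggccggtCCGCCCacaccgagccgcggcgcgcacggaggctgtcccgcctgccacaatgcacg
Gimap5, higher in Treg cells, chr6:48745947-48746246, plus strand: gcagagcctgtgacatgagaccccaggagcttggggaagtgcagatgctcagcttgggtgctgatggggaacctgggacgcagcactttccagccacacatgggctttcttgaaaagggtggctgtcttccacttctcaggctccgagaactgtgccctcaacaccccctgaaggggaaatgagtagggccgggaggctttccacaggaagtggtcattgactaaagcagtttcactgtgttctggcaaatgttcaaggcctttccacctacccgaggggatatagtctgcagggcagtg
Sp3, higher in Th2 cells, chr2:72979232-72979531, minus strand: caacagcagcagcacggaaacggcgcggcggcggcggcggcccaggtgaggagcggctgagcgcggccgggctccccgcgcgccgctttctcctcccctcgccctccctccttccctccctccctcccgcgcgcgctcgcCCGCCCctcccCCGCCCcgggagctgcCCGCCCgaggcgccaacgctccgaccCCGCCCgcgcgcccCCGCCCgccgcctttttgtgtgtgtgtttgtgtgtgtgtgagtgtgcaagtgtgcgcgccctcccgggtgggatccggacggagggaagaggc
Dnmt3a, higher in Treg and naive cells, chr12:3806730-3807029, plus strand: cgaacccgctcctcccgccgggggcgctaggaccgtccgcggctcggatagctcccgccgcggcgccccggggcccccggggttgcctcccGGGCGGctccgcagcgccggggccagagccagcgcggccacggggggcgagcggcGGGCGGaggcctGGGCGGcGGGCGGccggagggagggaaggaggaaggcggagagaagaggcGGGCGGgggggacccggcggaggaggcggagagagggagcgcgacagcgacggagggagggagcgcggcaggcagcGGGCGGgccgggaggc
Nim1k, higher in Th2 and naive cells, chr13:119755833-119756132, minus strand: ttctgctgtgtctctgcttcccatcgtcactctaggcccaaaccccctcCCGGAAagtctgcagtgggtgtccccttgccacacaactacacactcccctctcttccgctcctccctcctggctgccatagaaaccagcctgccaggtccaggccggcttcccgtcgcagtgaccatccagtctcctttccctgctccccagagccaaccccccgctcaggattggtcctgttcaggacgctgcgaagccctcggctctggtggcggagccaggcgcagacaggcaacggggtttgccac
Pou6f1, higher in Treg, Th2 and naive cells, chr15:100599935-100600234, minus strand: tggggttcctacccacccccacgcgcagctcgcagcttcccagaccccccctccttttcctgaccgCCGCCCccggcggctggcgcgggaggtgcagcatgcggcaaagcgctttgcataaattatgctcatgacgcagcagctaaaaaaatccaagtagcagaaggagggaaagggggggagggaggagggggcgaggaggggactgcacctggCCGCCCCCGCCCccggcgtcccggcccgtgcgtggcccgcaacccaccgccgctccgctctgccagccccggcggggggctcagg
Rreb1, higher in naive cells, chr13:37825788-37826087, plus strand: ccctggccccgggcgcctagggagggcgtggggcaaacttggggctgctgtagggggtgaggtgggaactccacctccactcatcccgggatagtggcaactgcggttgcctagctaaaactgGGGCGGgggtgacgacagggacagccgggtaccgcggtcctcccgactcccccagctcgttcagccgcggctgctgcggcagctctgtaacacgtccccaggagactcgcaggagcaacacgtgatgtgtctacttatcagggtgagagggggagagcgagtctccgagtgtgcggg

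These promoters differed in base composition. Dnmt3a, which encodes a DNA methyltransferase, had a GC content of 82.3% with 46 CG dinucleotides and 6 GC box matches. Sp3, itself a transcription factor that binds GC boxes, had 76.3%, 42 CG dinucleotides and 5 matches. Klf13, a zinc finger factor that promotes chemokine expression late in T cell activation, had 72%, 32 and 3, and Pou6f1, a POU domain factor, 70.3%, 26 and 3. Rreb1, a Ras-responsive zinc finger factor, had 66%, 21 and 1, while the Nim1k promoter had 63.3%, 13 CG dinucleotides, no GC box and 1 ETS match. Gimap5, a GTPase needed for lymphocyte survival, stood apart with 55.7%, 4 CG dinucleotides and none of the 7 motifs. A match is a string of letters, and its absence says only that these letters are not in the window.

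Broad regions lay at gene ends far more often than listed regions as a whole. The midpoint was within 1 kb of either end of a protein-coding gene in 630 of 998 broad regions (63.1%, exact 95% interval 60% to 66.1%), against 10570 of 50392 narrower regions (21%, 20.6% to 21.3%) and 11200 of all 51390 (21.8%). The measure uses the midpoint, so the window is the same at every width. Intervals cover counting error only, and regions are not independent. Of the broad regions 746 (74.7%) lay inside a gene, 236 (23.6%) outside with a gene end within 100 kb and 16 (1.6%) without one, against 60%, 34.9% and 5.08% of narrower regions. Broad regions away from gene ends were a median of 12.5 kb from the nearest one, narrower ones 17.9 kb.

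The share at gene ends grew with width. Over all merged regions it was 10.8% at 150 to 299 bp, 11.1% at 300 to 599 bp, 28.6% at 600 to 999 bp, 55% at 1000 to 1499 bp, 63.2% at 1500 to 1999 bp and 62.2% (51.9% to 71.8%) of the 98 regions of 2000 bp or more. Over all regions the step thus came below the width that defines the broad ones, and the widest 98 did not differ from the rest of the broad regions beyond their interval. Among intervals higher in Treg than other effector cells the share was 13.1% at 150 to 299 bp and 71.5% (67.5% to 75.3%) of the 540 broad ones. Among those higher in Th2 than other effector cells it was 11.5% and 73.2% (69.5% to 76.8%) of 594. At 1000 to 1499 bp these shares were already 67.7% and 71.5%. Shares were lower in the other tables and directions, and among intervals higher in naive cells the larger step came at 1500 bp. Among those higher in naive than other effector cells the share was 8.05% at 150 to 299 bp, 22.6% at 1000 to 1499 bp and 44.7% (38.8% to 50.7%) of the 282 broad ones. Among those higher in naive than in Treg cells it was 4.83%, 8.9% and 32.4% (17.4% to 50.5%) of 34, and among those higher in naive than in Th2 cells 4.92%, 8.99% and 30.6% (18.3% to 45.4%) of 49. Lower shares were not particular to naive cells. Where Treg were higher than naive cells it was 22.6% at 1000 to 1499 bp and 16.7% of 12 broad ones. Where Th2 were higher than naive cells it was 31.8% and 40% of 30. In Treg versus Th2 cells it was 22.9% and 40% of 5 higher in Treg, and 40.4% and 53.8% of 13 higher in Th2 cells.

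**Figure D1:**
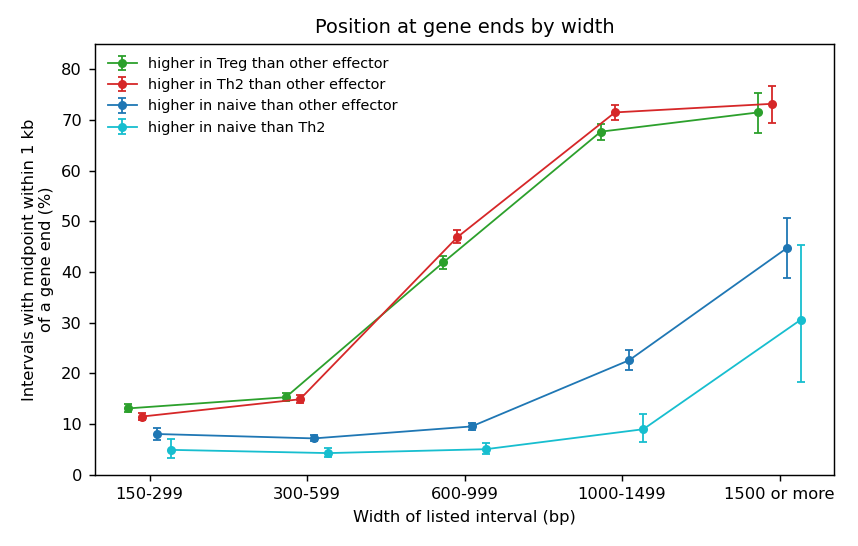
Share of listed intervals whose midpoint lies within 1 kb of a protein-coding gene end (y axis, percent) by interval width in bp (x axis), for intervals higher in Treg, Th2 and naive than other effector cells and in naive than in Th2 cells; points are shares and bars exact 95% binomial intervals. The shares of intervals higher in Treg and Th2 than other effector cells reach 71.5% and 73.2% at 1500 bp or more. Those of intervals higher in naive than other effector and than Th2 cells reach 44.7% and 30.6%. Other tables and directions are not shown.

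RefSeq start sites, which carry a strand, were counted as well. The promoter table has entries for 17492 of 21900 protein-coding genes and none on chromosome 18. Of the 965 broad regions elsewhere, 588 (60.9%) held a protein-coding start site. In the 437 with exactly 1, the region reached a median of 998 bp downstream of the start site, into the gene, and 684 bp upstream. It reached further downstream in 294 of them (67.3%, exact interval 62.7% to 71.7%), against 3593 of 5870 narrower regions with 1 start site (61.2%), whose medians were 486 bp downstream and 371 bp upstream. Start sites of 2 or more genes lay in 70 broad regions, in 67 of them on both strands. One of these, on chromosome 19 at 12794645 to 12796935, holds the start sites of Zfp91, a zinc finger gene, and Lpxn, which encodes the adhesion adaptor leupaxin, with a fold of -8.62 for other effector minus Th2 cells per the authors' deposited table. Neither the share with a start site nor that with start sites of 2 or more genes was taken over narrower regions. A wider region can hold more start sites by its width alone, so nothing is read from these counts beyond the description.

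Promoters in broad regions were richer in CG dinucleotides than those in narrower ones. The 793 start sites in broad regions had a median of 28 CG dinucleotides per 300 bases (quartiles 20 and 38) and a GC content of 67.7%. The 8620 in narrower listed regions had 22 (15 and 30) and 62%, the 10672 outside any listed region 5 (2 and 13) and 51%, and all 20085 had 14 and 57%. By width the median number was 12 at 150 to 299 bp, 17 at 300 to 599 bp, 21 at 600 to 999 bp, 25 at 1000 to 1499 bp and 29 at 1500 to 1999 bp. It was 25 for the 77 start sites in regions of 2000 bp or more. Composition therefore moves with width, and its part in the widths was not tested.

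The GC box stood in 76.4% of promoters in broad regions, in 68.9% of those in narrower listed regions and in 47% of all promoters. The TATA box stood in 4.41%, 5.85% and 12.7%, AP-1 in 3.28%, 4.52% and 7.06%, RUNX in 1.64%, 3.62% and 4.77%, GATA in 4.67%, 5.22% and 9.57%, and CRE in 3.03%, 3.76% and 2.3%. ETS varied with the pattern of populations, counted here by broad intervals only. It stood in 210 of 793 promoters in broad regions (26.5%, exact interval 23.4% to 29.7%), 31.8% of those in narrower listed regions and 19.1% of all. By pattern it stood in 132 of 397 promoters in regions higher in Treg and Th2 cells (33.2%, 28.6% to 38.1%), 24 of 105 in Treg (22.9%), 42 of 179 in Th2 (23.5%) and 7 of 88 in naive cells (7.95%, 3.26% to 15.7%). The GC box hardly varied, at 76.6%, 75.2%, 77.1% and 75% of the same promoters. In that order CRE stood in 2.77%, 6.67%, 2.79% and 1.14%, GATA in 5.79%, 2.86%, 2.23% and 7.95%, and RUNX in 1.26%, 2.86%, 1.68% and 0%. AP-1 stood in 3.02%, 4.76%, 3.91% and 2.27%, and the TATA box in 4.79%, 3.81%, 4.47% and 4.55%. ETS was thus not alone in varying, though these other shares rest on at most 23 matches each, and no test was made. With intervals of any width only 58 of the 243 regions of the naive pattern keep it, and motif shares were not taken by that count. The counts are of start sites, 793 from 656 genes in broad regions, so the intervals treat start sites of 1 gene as independent.

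Which populations were higher was uneven. Broad intervals numbered 540 for other effector versus Treg cells (2.23% of that table) and 594 for other effector versus Th2 cells (2.16%), all lower in other effector cells. Treg versus Th2 cells had 18 (0.345%), with Treg cells higher at 5 and Th2 cells at 13. Against naive cells, 282 (1.63%) separated other effector cells, all higher in naive cells. For Treg cells there were 46 (0.721%), 12 higher in Treg and 34 in naive cells, and for Th2 cells 79 (0.811%), 30 higher in Th2 and 49 in naive cells. No broad interval was higher in other effector cells, but neither was any of the 24237, 27561 and 17257 intervals of any width in the 3 tables with other effector cells.

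Counting intervals of any width, 709 of the 998 broad regions (71%) held one higher in Treg than other effector cells, against 46.7% of all merged regions, and 727 (72.8%) held one higher in Th2 than other effector cells, against 53.2%. In Treg versus Th2 cells the shares were 2.1% against 3.37% higher in Treg and 3.01% against 6.76% higher in Th2 cells. In naive versus other effector cells 28.3% were higher in naive cells, against 33.6%. In naive versus Treg cells 1.2% were higher in Treg, against 6.67%, and 3.41% in naive cells, against 5.75%. In naive versus Th2 cells 3.01% were higher in Th2, against 9.73%, and 4.91% in naive cells, against 9.23%. Both figures come from the tables the rule used, so nothing is read from them beyond the description.

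Grouped by the populations higher in at least 1 broad interval, 386 broad regions (38.7%) were higher in both Treg and Th2 cells, 243 (24.3%) in naive cells alone, 201 (20.1%) in Th2 cells alone and 129 (12.9%) in Treg cells alone. The remaining patterns combined naive cells with Treg and Th2 cells (21), with Treg cells (12) or with Th2 cells (6). Of regions higher in Treg and Th2 cells 293 (75.9%, exact interval 71.3% to 80.1%) lay at gene ends, against 107 of those higher in naive cells alone (44%, 37.7% to 50.5%). The share was 60.5% for Treg and 66.2% for Th2 cells alone. Start sites of 2 or more genes lay in 43 of 374 regions off chromosome 18 higher in Treg and Th2 cells, 7 of 120 in Treg, 19 of 198 in Th2 and none of 236 in naive cells alone.

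The pattern higher in naive cells alone depended on counting broad intervals only. Of its 243 regions, 88 also held narrower intervals with higher signal in Treg and in Th2 cells in a table of lung cells. A further 72 held such intervals for Treg and 25 for Th2 cells only, which leaves 58 higher in naive cells alone. With intervals of any width the pattern of Treg, Th2 and naive cells grew to 109 regions, that of Treg and naive to 84 and that of Th2 and naive to 31, while Treg with Th2 (388), Treg (128) and Th2 (200) hardly moved. Of the 282 regions broad in naive versus other effector cells, 193 held an interval of any width higher in Treg and 140 one higher in Th2 than other effector cells, 109 both and 58 neither. Either was present in 224 (79.4%), against 32.8% of all 17257 merged regions higher in naive than other effector cells. The 282 were chosen by width and the 17257 are of any width, so nothing is read from this contrast beyond the description.

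**Figure D2:**
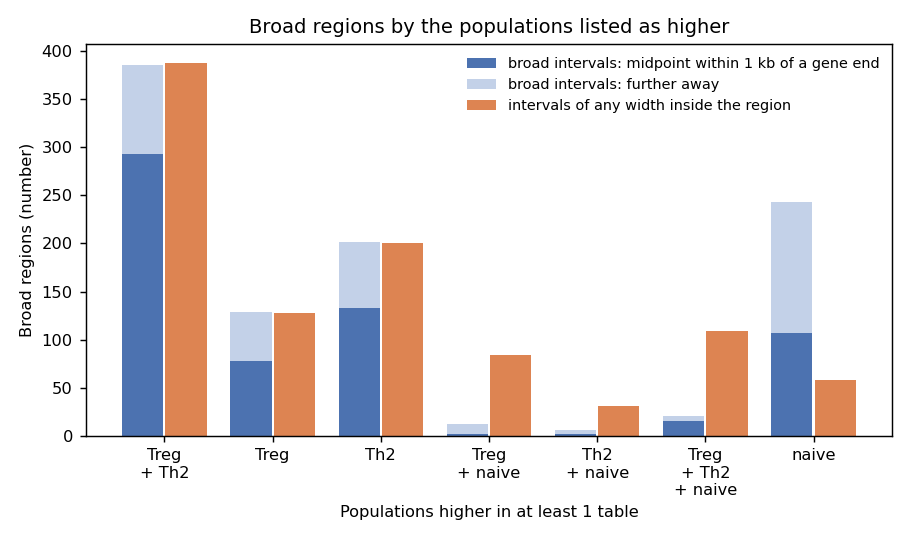
Number of broad regions (y axis) by the populations listed as higher (x axis). Blue bars use broad intervals only, split into regions with a midpoint within 1 kb of a gene end and those further away, and orange bars use intervals of any width inside the region; the naive pattern has 243 regions by the first count and 58 by the second.

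The tables used 2 sets of intervals, which bears on width. Within the 3 tables with naive cells all 10445 overlapping pairs of intervals had identical ends, as did all 16900 pairs within the 3 tables of lung cells. Across the 2 kinds 11208 of 23341 pairs (48%) were identical, and in all 23341 the lung interval lay within the naive-table interval. So a region can be broad in a table with naive cells and be listed in pieces in a table of lung cells. Narrower intervals, 448 in all, lay inside 209 broad regions, and all came from lung tables, 225 from other effector versus Treg, 185 from other effector versus Th2 and 38 from Treg versus Th2 cells. Of the 317 regions broad in a table with naive cells, 51 were also broad in a lung table, 207 held only narrower lung intervals and 59 held none. Of those 207 regions 77 held 2 to 4 separate pieces.

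Ifngr2, which encodes a chain of the interferon gamma receptor, shows the pieces. Its 2392 bp region on chromosome 16 at 91545500 to 91547891, over the gene start, was higher in naive than other effector cells by 9.01 per the authors' deposited table. Inside it, pieces of 621 and 290 bp had folds of -6.09 and -5.60 for other effector minus Treg cells per the authors' deposited table. For other effector minus Th2 cells the same pieces had -7.99 and -7.15, and a further piece of 150 bp had -4.14, per the authors' deposited table. All these values are from comparisons with other effector cells, which were the lower population at every interval listed there, so their direction is no finding about this gene. Rreb1 at 37825133 to 37827709 of chromosome 13 was higher in naive than other effector cells by 8.81, and its 2 pieces of 988 and 915 bp had -4.58 and -5.44 for other effector minus Treg and -6.14 and -5.61 for other effector minus Th2 cells, per the authors' deposited table. The Basp1 region of 2358 bp had 3 pieces lower in other effector than in Th2 cells, with folds of -4.52, -5.39 and -6.71 per the authors' deposited table, and none listed for other effector versus Treg cells. The middle piece, of 484 bp, was also lower in Treg than in Th2 cells (-5.40 per the authors' deposited table). Basp1 encodes a membrane-bound signalling protein.

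**Figure D3:**
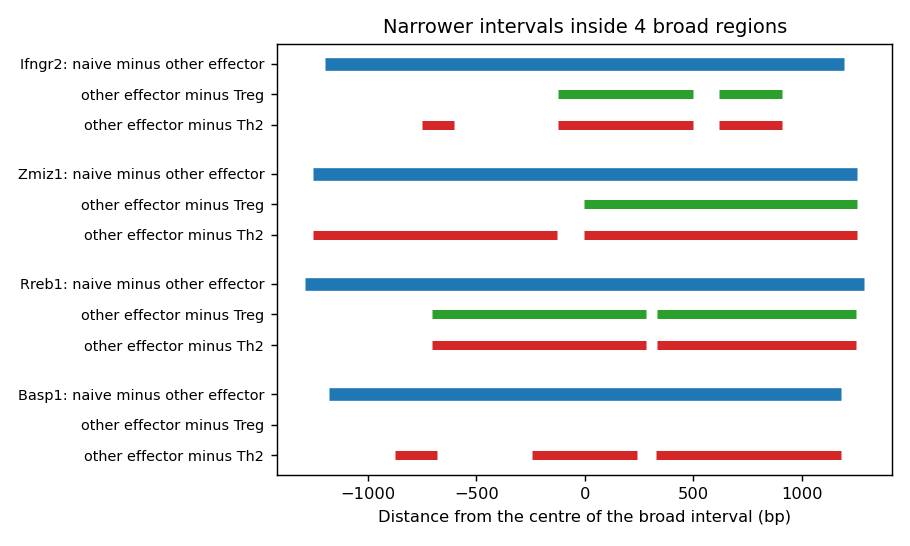
Extent of listed intervals (x axis, bp from the centre of the broad interval) at Ifngr2, Zmiz1, Rreb1 and Basp1, 1 row for each of 3 tables (y axis). The naive-table interval (blue) spans 2358 to 2577 bp and the lung-table intervals (green, versus Treg; red, versus Th2) lie inside it in pieces.

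The deposited folds of broad intervals were larger than those of narrower ones. The median size of the fold was 7.35 against 5.34 for other effector minus Treg and 7.30 against 5.37 for other effector minus Th2 cells per the authors' deposited tables, where all folds were negative. For naive minus other effector cells it was 7.83 against 5.40, per the authors' deposited table. For Treg minus Th2 cells it was 5.78 against 5.57 where Treg and 6.66 against 5.50 where Th2 cells were higher, per the authors' deposited table. For naive minus Treg cells it was 6.84 against 5.72 where Treg and 7.33 against 5.31 where naive cells were higher, and for naive minus Th2 cells 7.72 against 5.59 where Th2 and 7.29 against 5.28 where naive cells were higher, per the authors' deposited tables. The smallest fold listed among broad intervals was 3.45 in size, in naive versus Th2 cells, per the authors' deposited table. At gene ends and away from them the medians were close, 7.39 and 7.24 for other effector versus Treg, 7.35 and 7.08 for other effector versus Th2 and 7.79 and 7.86 for naive versus other effector cells per the authors' deposited tables.

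**Figure D4:**
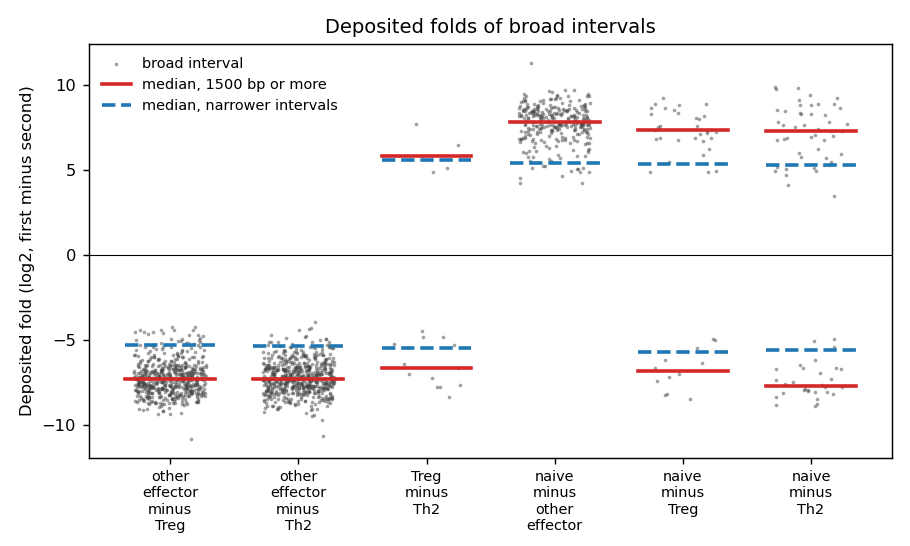
Deposited log2 fold, first minus second population (y axis), of every broad interval in each of the 6 tables (x axis); red lines are medians of intervals of 1500 bp or more and blue dashed lines medians of narrower ones, by direction. All points of the 2 tables of other effector minus Treg or Th2 cells are negative and all of naive minus other effector cells positive.

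The widest region of all, 3400 bp on chromosome 17 at 39843191 to 39846590, was not near a protein-coding gene. It overlaps Rn18s-rs5, annotated as a pseudogene related to ribosomal RNA, and had folds of -10.84 for other effector minus Treg and -10.69 for other effector minus Th2 cells per the authors' deposited tables. Mapping to repeated copies there was not examined, so this fold need not measure accessibility. Klf13 followed with 2839 bp over its start site on chromosome 7 (-8.43 and -8.45 in the same order per the authors' deposited tables). Tsc22d2, a member of a leucine zipper family, had 2759 bp within that gene on chromosome 3 at 58414334 to 58417092, with midpoint 1011 bp from a gene end and folds of -7.98 and -8.01 per the authors' deposited tables.

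Several of the widest regions lay inside a gene and away from its ends. Nr3c1, the glucocorticoid receptor, had 2618 bp at 39489207 to 39491824 of chromosome 18, higher in Treg than other effector cells (-8.28 for other effector minus Treg per the authors' deposited table). Arid5b, an AT-rich DNA-binding factor, had 2613 bp with -7.87 for other effector minus Treg and -6.40 for other effector minus Th2 cells per the authors' deposited tables. Cpeb2, a regulator of messenger RNA translation, had 2645 bp, broad only against Th2 cells (-8.22 per the authors' deposited table). Ywhaz, a phosphoserine-binding adaptor, had 2381 bp with -9.38 and -8.51 for other effector minus Treg and minus Th2 cells per the authors' deposited tables.

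Regions of similar width at or near gene ends also held transcriptional and splicing regulators. Ncoa2, a nuclear receptor coactivator, had 2366 bp (-8.52 and -8.91 for other effector minus Treg and minus Th2 cells per the authors' deposited tables). Hnrnpl, a splicing regulator, had 2361 bp (-8.76 and -7.80 per the authors' deposited tables). Stat6, the transcription factor of interleukin 4 signalling, had 2317 bp at 127641838 to 127644154 of chromosome 10 over its start site, with -8.43 for other effector minus Treg and -8.10 for other effector minus Th2 cells per the authors' deposited tables. The 3 broad regions with the largest folds for other effector minus Th2 cells were that of chromosome 17, Sp1 (-9.72) and Sp4 (-9.48) per the authors' deposited table. Sp1 and Sp4 are GC box binding factors like Sp3, whose own region had -8.48 per the authors' deposited table. For other effector minus Treg cells the largest after chromosome 17 were Gm20783 (-9.39), a predicted gene, and Ywhaz (-9.38), per the authors' deposited table.

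The widest region higher in naive cells, 2802 bp on chromosome 12 at 80130596 to 80133397, lay 14577 bp from the nearest gene end, that of the predicted gene Gm52006, with a fold of 7.83 for naive minus other effector cells per the authors' deposited table. Zmiz1, a coactivator of Notch signalling, had 2506 bp with 8.86, and Tle5, a Groucho family corepressor, 2430 bp with 9.35, per the authors' deposited table. Ust, a glycosaminoglycan sulfotransferase, had 2423 bp over its start site and the same fold of 8.01 over other effector and over Treg cells per the authors' deposited tables. The largest fold of naive minus other effector cells among broad intervals, 11.29 per the authors' deposited table, belonged to a 1891 bp region on chromosome 12 at 113423851 to 113425741. It lies within the annotated immunoglobulin heavy chain locus Igh, and the nearest protein-coding gene end, that of Adam6b, is 64769 bp away. The 9 B cell genes of a marker list had 0 broad among 28 listed regions, too few to read against the share of 2.01% over all genes, and the part of such cells in this fold was not tested. A further region, on chromosome 14 at 53794565 to 53796088, lies in the T cell receptor alpha locus over the segment Trav13-5, with folds of 7.75 for naive minus other effector and 4.94 for naive minus Th2 cells per the authors' deposited tables.

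Naive and Th2 cells differed at broad regions of named regulators in both directions. Higher in Th2 cells, Nr4a2, an orphan nuclear receptor induced by T cell receptor signals, had the widest, 2659 bp inside the gene on chromosome 2 at 57114757 to 57117415 (-7.64 for naive minus Th2 per the authors' deposited table, where negative is higher in Th2 cells). The largest sizes were at Ralgds, an activator of Ral GTPases (-8.93), Mapkapk3, a kinase downstream of p38 (-8.86), and Atf3, a stress-induced factor (-8.82), per the authors' deposited table. Bhlhe40, a factor required for helper T cell cytokine production, had -7.94, and Cd44, a sort marker and so no finding, -8.19 per the authors' deposited table. Further wide regions higher in Th2 cells were at Cntln (1944 bp), Slc22a15 (1943 bp), Galnt3 (1741 bp), Alkbh3 (1711 bp) and Ybx3 (1662 bp), a cold shock domain protein, with folds between -7.36 and -5.11 per the authors' deposited table. Higher in naive cells were Tha1 (9.86), a threonine aldolase gene, and a region 27157 bp from Trim33 (9.83), per the authors' deposited table. Trim33 is a TGF-beta pathway ubiquitin ligase. Rasgrp2, an activator of the GTPase Rap1, followed with 9.75 per the authors' deposited table. Lclat1, Ikbke, Itpk1, Adcy6 and Tnip3 had wide regions higher in naive cells with folds of 5.72 to 8.48 per the authors' deposited table, where Ikbke encodes a kinase of innate signalling and Tnip3 a binding partner of the NF-kappaB inhibitor Tnfaip3. The Tnip3 region lay outside that gene, 26182 bp from its nearer end.

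Fewer broad regions separated naive and Treg cells. Higher in Treg cells were Tmprss6, a membrane serine protease gene (-8.51), Ralgds (-8.25) and Mapkapk3 (-8.22), and the widest lay near Lmx1b at 1882 bp (-6.68) and in Ccdc50 at 1844 bp (-7.23), all as naive minus Treg per the authors' deposited table. Sh3gl3 (1838 bp, -4.95), Akap11 (1737 bp, -7.00), Klf12 (1731 bp, -6.38), Bhlhe41 (1645 bp, -5.03) and Ccdc6 (1597 bp, -7.46) followed per the authors' deposited table. The Akap11 region lay outside that gene, 56851 bp from its nearer end. Higher in naive cells were a region 46571 bp from the nearer end of Satb1 (9.19), Agpat3 (8.89), a phospholipid synthesis enzyme, and Prkch (8.86), a protein kinase C, per the authors' deposited table. St8sia1, a sialyltransferase, and Sesn3, a sestrin that restrains growth signalling, had 1966 and 1917 bp with folds of 8.33 and 7.15 for naive minus Treg cells per the authors' deposited table. The Sesn3 region lay outside that gene, 75559 bp from its nearer end.

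Treg and Th2 cells differed at 18 broad intervals. Higher in Treg cells were Rras2, a Ras family GTPase (7.70), Tmem158 (6.47), Aqp11 (5.78), Cabcoco1 (5.11) and Drd3, a dopamine receptor (4.86), all as Treg minus Th2 per the authors' deposited table. Only the midpoints at Tmem158 and Cabcoco1 lay within 1 kb of a gene end among these 5. Those of Aqp11 and Drd3 lay outside the genes, 10687 and 44325 bp from the nearer end. Higher in Th2 cells the largest sizes were at Bach2 (-8.38), the adaptor gene Garem1 (-7.78) and Bhlhe40 (-7.77) per the authors' deposited table. The widest were near Rpl7, a ribosomal protein gene (1909 bp, -7.03), and in Lrrc8d, an anion channel subunit gene (1890 bp, -4.86), per the authors' deposited table. Tacc2 (1857 bp, -4.85), Zfp36l2, an RNA decay factor (1845 bp, -6.41), Rap2b, a small GTPase (1833 bp, -7.67), Ston2 (1696 bp, -7.24) and Repin1 (1642 bp, -5.27) followed per the authors' deposited table.

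Broad intervals of the same region recurred in several tables, some of which share a population. Of the 998 regions 477 were broad in 1 table, 485 in 2, 32 in 3 and 4 in 4. The commonest set was other effector versus Treg with other effector versus Th2 cells, at 379 regions. The 4 regions broad in 4 tables lay at Ccdc50, Ralgds, Rras2 and 4921504E06Rik. At Ralgds the folds were -8.08 and -8.76 for other effector minus Treg and minus Th2 cells, and -8.25 and -8.93 for naive minus Treg and minus Th2 cells, per the authors' deposited tables. Ccdc50, a ubiquitin-binding signalling protein, had -7.03, -8.23, -7.23 and -8.36 in the same order per the authors' deposited tables. Both were thus lower in other effector and in naive cells than in Treg and Th2 cells. Rras2 had -7.52 for other effector minus Treg, 7.70 for Treg minus Th2, 8.09 for naive minus other effector and 8.27 for naive minus Th2 cells per the authors' deposited tables, so other effector and Th2 cells were its lower pair. At 4921504E06Rik, a gene without a settled function, other effector and Treg cells were the lower pair, with -5.30 for other effector minus Th2, -5.31 for Treg minus Th2, 6.69 for naive minus other effector and 6.69 for naive minus Treg cells per the authors' deposited tables.

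By broad intervals alone, few regions set 1 population against all 3 others. Th2 cells were higher than all 3 at 2, Bhlhe40 and Garem1. Naive cells were higher than all 3 at 8, near or in Satb1, Crim1, Kcna2, Dip2b, Ceacam2, Chrm3, Iqce and Dcp2. Other effector cells were lower than all 3 at 21, among them the first Bach2 region and those in Akt1, a kinase of growth signalling, and in the corepressors Tle1 and Tle5. Another lay 27595 bp from Jak1, a cytokine receptor kinase. By broad intervals no region had other effector or Treg cells higher than all 3. No interval of any width listed other effector cells as higher, so a region in all 3 of their tables could only have them lower. Their counts are therefore no contrast with the other populations, and the same counts over all merged regions were not taken. With intervals of any width inside the regions, other effector cells were lower than all 3 at 109 regions, Th2 cells higher than all 3 at 10 (Cd44, Klf6, Cebpd, Cntln, Fgf6, Ppfibp2, Sestd1 and 4930583I09Rik besides those 2), Treg cells at 1 (Sh3gl3), naive cells at the same 8 and other effector cells at 0. Tle1 had -8.73 for other effector minus Treg, -8.81 for other effector minus Th2 and 9.05 for naive minus other effector cells per the authors' deposited tables. The values of Jak1 were -6.43, -7.83 and 8.13, those of Akt1 -7.89, -6.92 and 8.05, and those of Pou6f1 -5.04, -3.97 and 8.21 in the same order per the authors' deposited tables.

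The 3 folds of naive cells at 1 region often differed by a fixed amount. At Satb1, which organises chromatin in T cells, naive minus other effector was 9.19, naive minus Treg 9.19 and naive minus Th2 9.37 per the authors' deposited tables. Dip2b had 8.64, 8.64 and 8.82, Kcna2, a potassium channel gene, 7.50, 7.50 and 7.68, and Chrm3, a muscarinic receptor gene, 6.79, 6.80 and 6.98 in the same order per the authors' deposited tables. Ceacam2 was an exception, with 8.34, 5.47 and 8.52 per the authors' deposited tables. Over the 49 broad intervals higher in naive than in both other effector and Th2 cells, the 2 folds differed by within 0.01 of 0.18 at 30 (61.2%), and so they did at 2852 of 4740 intervals of any width (60.2%). For other effector and Treg cells the difference was within 0.01 of 0 at 28 of 34 broad intervals (82.4%) and 1922 of 2954 (65.1%). In the tables that share Th2 cells, other effector minus Th2 and Treg minus Th2 differed by within 0.01 of 0 at 10 of 13 broad intervals (76.9%) and 2616 of 3485 (75.1%). Each such pair of tables shares a population, the repeated differences are a property of the folds as deposited, and their cause was not tested. Equal folds over 2 populations are therefore not separate measurements of size.

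**Figure D5:**
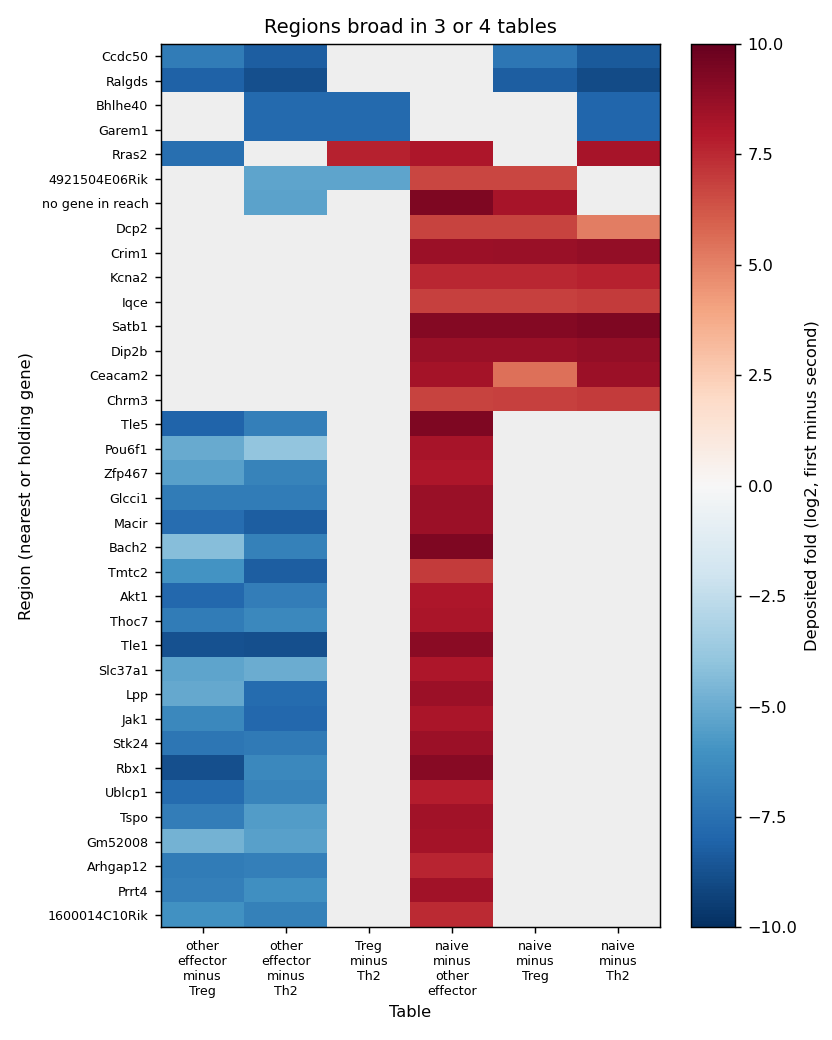
Deposited log2 folds, first minus second population (colour), in the 6 tables (columns) for the 36 regions broad in 3 or 4 tables (rows, named by the nearest or holding gene; grey, not listed as broad). The 21 lower rows are blue against Treg and Th2 cells and red for naive minus other effector cells, so that other effector cells are the lower population in all 3.

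Genes of 17 lists, of T helper function, housekeeping and other cell types, held few of the broad regions, in proportion to their listed regions. The 330 genes had 57 broad regions over 50 genes, 1.75% of their 3261 listed regions, against 982 of 48815 (2.01%) for all genes. For genes of the naive state the count was 8 of 428 regions (1.87%). Bach2, a repressor of effector differentiation, had 3 broad among 67 listed regions, the largest number of broad regions of any gene. The first, 2007 bp at 32238308 to 32240314 of chromosome 4, was lower in other effector cells than in Treg, Th2 and naive cells (-4.29, -6.73 and, as naive minus other effector, 9.33 per the authors' deposited tables). The second, 9491 bp further on at 32249806 to 32251427, was higher in Th2 than other effector (-8.37) and Treg cells (-8.38), and the third, at 32342966 to 32344526, higher in naive than other effector cells (9.22), per the authors' deposited tables. The third also held a narrower piece of 1020 bp lower in other effector than in Treg and Th2 cells (-5.68 for both per the authors' deposited tables), so counting pieces it had the pattern of the first.

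Foxp1, another factor of the resting state, had 2 broad regions among 86 listed. One was higher in Treg and Th2 than other effector cells (-7.67 and -5.93) and the other higher in naive than other effector cells (7.45) per the authors' deposited tables. The latter also held a narrower piece lower in other effector than in Treg cells (-5.35 per the authors' deposited table). Foxo1, which sustains naive T cell homing, had 1 at its gene end of 2066 bp with -7.88 for other effector minus Treg and -6.01 for other effector minus Th2 cells, and Actn1, an actin crosslinker, 1 with 8.46 for naive minus other effector cells per the authors' deposited tables.

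The Th2 list had 3 broad regions of 212 (1.42%), at Stat6, Bhlhe40 and Maf, all at gene ends, and that of Maf, a factor that activates interleukin 4, was broad only for other effector minus Treg cells (-8.29 per the authors' deposited table). The Treg list had 1 of 195 (0.513%), a region 37885 bp from Nrp1, a Treg surface receptor gene. This region was higher in naive than other effector cells by 6.57 per the authors' deposited table. The Th1 and Th17 list had 0 of 125.

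T cell transcription factors had 10 of 512 (1.95%), at Cbfb, Elf1, Gfi1, Irf2, Nfatc2, Runx1, Runx2, Tox, Tox2 and Zeb1. Those of Gfi1, a repressor that supports lymphocyte growth, and Tox were higher in naive than other effector cells by 8.05 and 8.48, per the authors' deposited table. Tox2, Zeb1 and Nfatc2, the last a factor activated by calcium signals, were broad only against Treg cells (-8.47, -8.03 and -7.76 for other effector minus Treg per the authors' deposited table). Elf1, an ETS factor, and Runx1 were broad only against Th2 cells (-7.81 and -7.49 for other effector minus Th2 per the authors' deposited table). Cbfb, the partner of the Runx factors, Irf2 and Runx2 were broad against both, with folds of -8.43 to -5.71 per the authors' deposited tables.

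Chromatin modifiers had the largest share of the lists of T cell function, 10 of 239 (4.18%), at 9 of 23 genes. Ep300, a histone acetyltransferase, Ezh2 and Kmt2c, histone methyltransferases, Ncoa1, Arid1b and Tet3, a DNA demethylating enzyme, were higher in both Treg and Th2 than other effector cells, with folds of -7.71 to -5.43 per the authors' deposited tables. Tet2 was broad only for other effector minus Th2 cells (-6.83 per the authors' deposited table). Dnmt3a had 1 region higher in Treg and naive than other effector cells (-6.15 for other effector minus Treg and 8.26 for naive minus other effector per the authors' deposited tables). A second Dnmt3a region and 1 of Hdac4 were higher in naive than other effector cells (7.58 and 6.76 per the authors' deposited table). Both also held narrower pieces lower in other effector than in Treg cells (-4.77 at Dnmt3a, -6.24 and -5.65 at Hdac4). The same held against Th2 cells (-4.58 and -4.49 at Dnmt3a, -4.27 and -6.63 at Hdac4), per the authors' deposited tables. Another Dnmt3a interval fell 1 bp short of the minimum width. Of housekeeping genes 2 of 50 regions (4%) were broad, at Polr2a and Ywhaz.

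Immediate early genes had 8 of 378 (2.12%), 7 of them higher in Th2 cells alone by broad intervals, against 201 of all 998 broad regions (20.1%). The list was chosen with earlier results of these data known, and the 8 regions come from 6 genes. Nothing is read from this contrast beyond the description. Against naive cells these were Atf3, Nr4a2 and a region 57289 bp from Klf6, a zinc finger factor (-8.17 for naive minus Th2 per the authors' deposited table). Against other effector cells they were Egr2, a factor induced by T cell receptor signals (-8.14), Ier5 at its gene end (-6.80) and Zfp36l2, which had 2 regions separated by 4693 bp (-6.40 and -8.39), for other effector minus Th2 per the authors' deposited table. The exception was a distal Ier5 region higher in naive than other effector cells (8.95 per the authors' deposited table). It also held a narrower piece of 1303 bp lower in other effector than in Treg cells (-6.37 per the authors' deposited table).

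Genes of T cell receptor signalling had 6 of 365 (1.64%). Prkcq, the protein kinase C of the synapse, had 2 regions, 10460 and 31357 bp from the gene. Both were higher in naive than other effector cells (7.42 and 7.25 per the authors' deposited table). So were Prkch (8.85), Cd247, the zeta chain of the receptor (7.33), and a region 15345 bp from Malt1 (9.07) per the authors' deposited table. Over all 998 broad regions this share was 28.3%. The Malt1 region also held narrower pieces lower in other effector than in Treg (-6.23 and -4.92) and Th2 cells (-4.10 and -5.66), per the authors' deposited tables. Both Prkcq regions held pieces lower than in Treg cells (-4.21 and -4.08), and the second also than in Th2 cells (-5.63, -6.39 and -6.22), per the authors' deposited tables. Malt1 is a protease of NF-kappaB activation. Fyn, a Src family kinase, was higher in Treg than other effector cells (-7.70 for other effector minus Treg per the authors' deposited table). Cytokine receptor genes had 3 of 243 (1.23%), 1 at Tgfbr2, 1 lying 27595 bp from Jak1 and 1 lying 39197 bp from Il6st. Il6st encodes the shared receptor chain of the interleukin 6 family. In its region naive cells were higher than other effector cells by 9.06 and than Th2 cells by 9.24 per the authors' deposited tables. Narrower pieces there were higher in Treg than other effector cells (-4.16 and -5.03), and the second also than Th2 cells (5.22 for Treg minus Th2), per the authors' deposited tables. The NF-kappaB list had 2 of 145 (1.38%), Bcl3 and Birc3, and Birc3, an inhibitor of apoptosis, had -8.47 and -9.10 for other effector minus Treg and minus Th2 cells per the authors' deposited tables. Homing genes had 2 of 226 (0.885%), Cd44 and Itgb7, an integrin chain, and glycolysis genes 1 of 116 (0.862%), Pfkfb3.

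Of genes that mark other cells a sort could hold, the B cell list had 0 broad of 28 regions, the CD8 and natural killer list 0 of 29, the epithelial and stromal list 0 of 38 and the myeloid list 1 of 53 (1.89%). That 1 was Cebpb, a factor of myeloid cells, with -7.71 for other effector minus Treg and -8.02 for other effector minus Th2 cells at its gene end per the authors' deposited tables. The part of such cells in the result was not tested.

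Most genes had a single broad region: 913 had 1, 33 had 2 and Bach2 had 3. Trio, Prkcq, Elmo1, Ubac2, Zfp36l2, Arl4c, Foxp1, Pced1b and Gm52008 had 2 broad among 21 or more listed regions, whereas Mllt10, Lbr and Tagln2 had 2 among 4, 7 and 3. Pairs of broad regions within 50 kb of each other numbered 37, 15 of them assigned to 1 gene, and 13 had the same populations higher by broad intervals. At Mllt10, a transcription cofactor gene, a region 1969 bp from a gene end was higher in Treg and Th2 cells and one 5833 bp away higher in naive cells. At Lbr, the lamin B receptor gene, the same patterns stood 9230 bp apart. These patterns count broad intervals only: the naive region of Mllt10 also held narrower pieces higher in Treg (-7.63) and Th2 (-7.04 and -6.70), and that of Lbr pieces higher in Treg (-4.81 and -4.93) than other effector cells, per the authors' deposited tables.

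The annotation has 13 microRNA genes overlapping broad regions, 1 in each. Mir1938 lies in that of Ifrd1, with -8.27 and -9.11 for other effector minus Treg and minus Th2 cells per the authors' deposited tables. The others were Mir8096, Mir8104, Mir8105, Mir5100, Mir5131, Mir5130, Mir1945, Mir7655, Mir3569, Mir707, Mir7654 and Mir7238. Only the region of Mir8096 included naive cells among its higher populations (9.06 for naive minus other effector and -7.78 for other effector minus Treg per the authors' deposited tables). The other 12 were higher in Treg or Th2 than other effector cells, and at Mir707, in the region of Akt1s1, an mTOR inhibitor gene, the folds were -8.72 and -8.09 for other effector minus Treg and minus Th2 cells per the authors' deposited tables. Of all 998 broad regions 732 were broad in a table of lung cells, and no listed interval was higher in other effector cells. The direction is therefore no finding about microRNA genes. Among the 16 regions without a protein-coding gene within 100 kb were those over the long noncoding genes Pvt1 (8.20 for naive minus other effector cells) and Morrbid (-8.03 and -7.33 for other effector minus Treg and minus Th2 cells) per the authors' deposited tables.

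Distinct intervals numbered 542 at 1400 to 1499 bp and 393 at 1500 to 1599 bp. Just inside, intervals of 1500 bp at Eif4a2 had -6.99 and -7.53, and at Eml4 -6.64 and -6.59, for other effector minus Treg and minus Th2 cells, and 1 of 1500 bp on chromosome 18 with no gene within 100 kb had 8.47 for naive minus other effector cells, per the authors' deposited tables. Just outside, intervals of 1499 bp near Tnfaip3 and Itih5 and in Dnmt3a had -6.74 for other effector minus Th2, 6.58 for naive minus other effector, and -6.55 and -5.40 for other effector minus Treg and minus Th2 cells, per the authors' deposited tables.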

How the data were processed

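Per the labels' protocols, 4 populations of 1000 sorted cells in 3 biological replicates were tagmented for 30 minutes, amplified in 16 PCR cycles and sequenced in read pairs of 125 bases. The submitters' processing notes name DiffBind, without a version, and build mm9. The aligner, peak caller, normalization and threshold were not given in the sources used here. For naive cells the source label (lung and airways) conflicts with the protocol (mediastinal lymph node), which was followed.

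The 6 deposited tables hold a position and a fold, read as log2, the scale of the authors' tool. Where 3 populations had a region in each of their 3 tables (3 and 1 regions), folds added up exactly (largest residual 0.00). The overall sign was read from 17 naive T cell genes, at which naive cells were the higher population in 322 and the lower in 0 intervals versus other effector cells, 75 and 6 versus Treg and 151 and 8 versus Th2 cells, so their direction is no independent evidence. Coordinates are given as GRCm38, 1-based, against the build named in the notes, because 63.1% of broad regions had a midpoint within 1 kb of a GRCm38.p6 gene end, and 4.31% to 6.91% had one after shifts of 10 to 1000 kb.

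Intervals of 1500 bp or more on chromosomes 1 to 19 were merged at an overlap of 1 bp or more. Regions took the name of the shortest protein-coding gene around their midpoint or, failing that, of the nearest gene end within 100 kb (21900 genes, with no strand or exons). A named gene therefore need not hold the region. Of 330 genes on the lists 329 matched. Shares have exact (Clopper-Pearson) 95% intervals from scipy 1.17.1, with pandas 2.3.3. No test was made, because the tables hold no replicates. Merging and assignment were tested on simulated data. Named are the widest regions, per table and direction the 8 widest intervals and the 3 with the largest folds, regions broad in most tables, genes with most regions and list genes. Some were left out for length or are not reported here, and others, such as pairs, microRNAs and noncoding genes, were chosen after their values were seen. The regions and gene lists were chosen with earlier results of these data known. A width minimum of 1200 or 2000 bp, other merging and assignment, and fewer tables were tried as alternatives.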

Additional observations from a re-analysis of the deposited data

Results flagged for a closer look

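Chromosome X lay outside the regions described above but held 22 broad regions from 34 intervals. They were found in data that the counts do not use, with no control samples to set them against, and 12 lay at gene ends. Of these regions 8 were higher in Treg and Th2 cells, 3 in Th2 cells alone, 10 in naive cells alone and 1 in Th2 and naive cells. The widest, 2300 bp at the end of the ubiquitin protease gene Usp9x, had -7.47 for other effector minus Th2 cells in the authors' deposited table. A further 2 broad intervals lay on an unplaced sequence.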

How the results depend on the processing

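Counts followed the width minimum, while position did not. With 1200 bp there were 3466 regions and 5633 intervals (2038 higher in Treg, 2255 in Th2, 1340 in naive cells), a median fold size of 7.08 and 172 regions of list genes. With 2000 bp there were 98 regions and 141 intervals (47, 57 and 37), a median of 8.01, 12 regions of list genes and 40.8% broad in 2 or more tables. The share at gene ends was 60.8% and 62.2%. With only the 3 tables that lack other effector cells, 124 regions and 143 intervals remained (17, 43 and 83), with a median of 7.29, 15.3% broad in 2 or more tables and 34.7% at gene ends, so the overall share at gene ends rests on tables of other effector cells. Merging all intervals first gave the same 998 regions, but 68.9% in 2 or more tables and a median of 7.14. A window of 2.5 kb gave 71% at gene ends. Values with a stricter overlap, all chromosomes, folds of 5 or more, a gene end inside the region or assignment within 10 kb kept within the limits used (1.5 times for counts, the exact interval for shares and medians). No paired analysis was possible because the tables hold no replicate values. Depth is unknown, so which regions could have been called broad in any library cannot be told.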
